A study of Mus musculus with 15 samples.

Results

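The cytosolic ribosomal protein genes are the 82 gene symbols, of 23412 listed, that name a protein of the cytosolic ribosome by its Rpl or Rps number or are *Rplp0*, *Rplp1*, *Rplp2* or *Rpsa*. *Rpl8* is not among them. Of the 82, 50 encode large subunit proteins and 32 small subunit proteins. Both sets include related copies of a main gene (paralogues), namely *Rpl3l*, *Rpl7l1*, *Rpl10l*, *Rpl22l1* and *Rpl39l* for the large subunit and *Rps27l* for the small. The members were chosen by name and by no measured value, but the set was proposed with earlier results of these data known.

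Polyadenylated RNA was sequenced from 15 libraries of the male mouse embryonic stem cell (mESC) line v6.5, 3 replicates in each of 5 conditions. STAG1 and STAG2 are alternative subunits of cohesin, the ring complex that holds DNA strands and folds chromosomes, and the question here is how the ribosomal protein genes stood when either or both were lost. With the control oligonucleotide siGLO there were wild-type, *Stag1*-/- and *Stag2*-/- cells. With siStag1, an siRNA pool against *Stag1*, there were wild-type and *Stag2*-/- cells. Every library was transfected at 50 nM for 48 h, so no condition is untransfected. Each knockout genotype was 1 CRISPR clone, and differences from wild-type cannot be told apart from differences of that clone. The 4 comparisons with wild-type siGLO use the same 3 wild-type siGLO libraries as controls, so their values are given side by side and are not independent of each other.

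Per library, 14982560 to 19070126 counts fell on genes (median 17700059). The 10 mESC markers were counted in every condition, and their summed level was 101514 to 109287 normalized counts in wild-type siGLO, 86087 to 95833 in *Stag1*-/- siGLO, 80330 to 95687 in *Stag2*-/- siGLO, 93238 to 95059 in wild-type siStag1 and 54769 to 70486 in *Stag2*-/- siStag1. For a normalized count, the raw count was scaled by library size and its TMM factor to the mean depth. Summed markers of primitive endoderm (5 genes) were 2249 to 2540 in wild-type siGLO and 2299 to 2626 in wild-type siStag1, against 212 to 343 in *Stag1*-/- siGLO, 354 to 653 in *Stag2*-/- siGLO and 412 to 633 in *Stag2*-/- siStag1. Those of fibroblasts (7 genes) were 348 to 697 over all libraries. Neural markers (4 genes) were 1905 to 2700 in wild-type siGLO, 2136 to 2493 in *Stag1*-/- siGLO and 1912 to 2334 in wild-type siStag1, against 2929 to 4526 in *Stag2*-/- siGLO and 3330 to 5657 in *Stag2*-/- siStag1. Trophoblast markers (5 genes) were 280 to 441, 403 to 461 and 297 to 362 in the first 3 of these, against 126 to 269 and 117 to 169. These marker levels move with genotype. The summed mESC markers also stood lower with siStag1 than with siGLO, without overlap, in wild-type and in *Stag2*-/- cells. The part of the markers in the results below was not tested. In bulk RNA, fewer cells of a type and less RNA per cell cannot be told apart. *Stag1* stood at 353 to 518 normalized counts in wild-type siStag1 and 629 to 781 in *Stag2*-/- siStag1, against 2012 to 2288 in wild-type siGLO. *Stag2* stood at 663 to 739 in *Stag2*-/- siGLO and 851 to 941 in *Stag2*-/- siStag1, against 2329 to 2334. *Stag1* counts check nothing in the *Stag1*-/- clone, where they were 1826 to 2369.

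A ribosome is made of ribosomal RNA and one copy of most ribosomal proteins, with the P-stalk proteins RPLP1 and RPLP2 present in more than one copy around RPLP0. Cells make the proteins in matched amounts, and the messenger RNAs begin with a run of pyrimidines (the TOP motif) through which the mTOR kinase and LARP1 set their translation. A few proteins have paralogues that can take their place in the ribosome. RPL22 and its paralogue RPL22L1 are the best studied pair, and RPL22 protein is known to bind *Rpl22l1* RNA and to keep its level down. In embryonic stem cells, which divide fast, ribosomal protein mRNAs are among the most abundant transcripts.

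The promoters of 6 members are shown because the results turn on them: in each, a log2 change of at least 0.60 from wild-type siGLO passed the test in some condition, as described below. Of the other members with such a change, *Rps29* has no entry and the call of *Rpl3l* rests on low counts. Each window runs from 150 bases before the annotated start to 20 bases from it, in RefSeq on GRCm38.p6, and capitals mark the motifs found.
*Rpl22* (chr4:152325576-152325745, + strand): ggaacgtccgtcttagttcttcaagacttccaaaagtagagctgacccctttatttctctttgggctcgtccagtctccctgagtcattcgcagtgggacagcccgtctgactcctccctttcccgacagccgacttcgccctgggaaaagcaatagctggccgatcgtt
*Rpl22l1* (chr3:28805358-28805527, + strand): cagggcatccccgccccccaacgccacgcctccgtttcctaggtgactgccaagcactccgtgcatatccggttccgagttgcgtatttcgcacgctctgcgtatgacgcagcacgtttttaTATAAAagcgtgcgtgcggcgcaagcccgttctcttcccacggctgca
*Rpl10l* (chr12:66284382-66284551, - strand): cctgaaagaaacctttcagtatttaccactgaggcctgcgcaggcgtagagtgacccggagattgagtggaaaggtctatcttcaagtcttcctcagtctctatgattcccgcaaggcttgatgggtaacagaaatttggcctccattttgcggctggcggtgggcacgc
*Rps28* (chr17:33824543-33824712, - strand): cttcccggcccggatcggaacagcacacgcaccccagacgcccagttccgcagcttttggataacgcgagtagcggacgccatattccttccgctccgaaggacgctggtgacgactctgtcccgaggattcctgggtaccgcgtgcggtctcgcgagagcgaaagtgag
*Rpl38* (chr11:114668430-114668599, + strand): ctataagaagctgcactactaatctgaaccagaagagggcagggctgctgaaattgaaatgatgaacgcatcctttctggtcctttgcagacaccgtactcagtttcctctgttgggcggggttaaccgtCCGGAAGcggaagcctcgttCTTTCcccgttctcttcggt
*Rps21* (chr2:180257229-180257398, + strand): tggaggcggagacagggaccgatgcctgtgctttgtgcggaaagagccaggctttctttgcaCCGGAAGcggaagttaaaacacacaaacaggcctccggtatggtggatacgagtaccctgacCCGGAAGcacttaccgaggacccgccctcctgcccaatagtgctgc
The *Rpl22l1* window holds TATAAA 28 bases before the start, that of *Rpl38* holds CCGGAAG, the core bound by ETS factors, and CTTTC at the start, and that of *Rps21* holds CCGGAAG in 2 places. The windows of *Rpl22*, *Rpl10l* and *Rps28* hold none of the 5 motifs searched.

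Promoter entries were matched for 63 of the 82 members. CCGGAAG, searched on both strands, was in the windows of 22 of them (34.9%), 13 of 39 large and 9 of 24 small subunit genes, against 7.66% of 27025 genes. CTTTC on the sense strand within 10 bases of the start, the letters of a pyrimidine run, was in 11 of 63 (17.5%) against 2.91% of all genes. TATAAA on the sense strand was in 3 members (*Rpl22l1*, *Rpl36a* and *Rpl39*; 6.14% of all genes), AAGATGGC, the core of YY1 sites, on either strand in 3 (1.45% of all genes) and CACGTG, the E-box bound by MYC family factors, in 3 (5.53% of all genes). A match is a description of letters in the window and not of a bound factor. *Rps29* is among the 19 members without an entry.

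The levels within wild-type siGLO spanned a wide range. As CPM (counts scaled to a common library total) per kb of the principal transcript, the highest large subunit genes were *Rplp1* with 2963 ± 29.5 (SD, n = 3), *Rpl13* with 2003 ± 84.7 and *Rpl4* with 1715 ± 58.3. The highest small subunit genes were *Rps2* with 2766 ± 92.4, *Rps14* with 1874 ± 50.3 and *Rps18* with 1693 ± 36.5. The paralogues stood low in the large subunit order, with *Rpl22l1* at 247.5 ± 12.9 just above *Rpl22* at 187.0 ± 8.72, then *Rpl7l1* at 97.3 ± 17.2, *Rpl10l* at 23.3 ± 6.11, *Rpl39l* at 12.2 ± 3.55 and *Rpl3l* at 1.91 ± 0.931. The principal transcripts of the members are short, with a median of 886 nt for the large and 791 nt for the small subunit against 2939 nt over all genes tested.

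The main genes *Rpl26*, *Rps27*, *Rpl30* and *Rpl34* were counted near 0 in every library. *Rpl26* had 2 counts in wild-type siGLO replicate 2 and 0 in the other 14 libraries, and *Rps27* had 1.0 to 11.4 normalized counts. *Rpl30* had 2.7 to 11.8 and *Rpl34* 13.5 to 46.5. Reads mapping to several places were set apart in the deposited files (3.8% to 4.5% of all reads in the files) and not assigned to genes. Of all 150-base stretches of their transcripts, the share found in the transcript of another gene was 2.2% for *Rpl26*, 3.3% for *Rpl30*, 1.2% for *Rpl34* and 16.3% for *Rps27*, and the annotation names 6, 9, 2 and 1 pseudogenes of them. The part of such copies in the low counts was not tested, and these 4 levels are uncertain. Over all members, 39 shared more than 10% of stretches with another gene, 13 shared none (among them *Rpl22*, *Rpl10l*, *Rpl39* and *Rps21*), and 27 overlapped another gene on the same strand, small nucleolar RNA genes among them. *Rpl26* and *Rps27* did not pass the filter on low counts, leaving 80 members tested, 49 large and 31 small. Counts and medians over the tested members are descriptions. Genes were called at a Benjamini-Hochberg adjusted p under 0.1 over all 14508 genes tested by edgeR.

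*Rpl22* and its paralogue *Rpl22l1* moved in opposite directions in both knockouts, and in opposite directions between the knockouts. *Rpl22* (chr4:152325742-152334071, + strand) stood at 6569, 6572 and 6917 normalized counts in wild-type siGLO and at 3678, 3376 and 4806 in *Stag1*-/- siGLO. It was 8520, 7879 and 8189 in *Stag2*-/- siGLO, 6711, 7521 and 9061 in wild-type siStag1, and 8210, 8787 and 7913 in *Stag2*-/- siStag1. All *Stag1*-/- libraries lay below every other library, and all *Stag2*-/- libraries of both treatments lay above the wild-type siGLO libraries, whereas wild-type siStag1 overlapped them. The change against wild-type siGLO was -0.76 on the log2 scale in *Stag1*-/- siGLO (SE 0.12, edgeR adjusted p = 0.000493), 0.29 in *Stag2*-/- siGLO (SE 0.12, adjusted p = 0.0926) and 0.31 in *Stag2*-/- siStag1 (SE 0.12, adjusted p = 0.0509). The fall in *Stag1*-/- was called with any 1 library left out. The rise in *Stag2*-/- siGLO was called in none of the 6 fits that leave out 1 of the libraries compared (adjusted p from 0.133 without *Stag2*-/- siGLO replicate 2 to 0.212 without wild-type siGLO replicate 2, with changes of 0.26 to 0.32), and that in *Stag2*-/- siStag1 in 3 of 6 (0.112 without wild-type siGLO replicate 1, 0.129 without replicate 2 and 0.15 without *Stag2*-/- siStag1 replicate 2).

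*Rpl22l1* (chr3:28805436-28807424, + strand) stood at 2464, 2241 and 2442 normalized counts in wild-type siGLO and at 3015, 3509 and 4617 in *Stag1*-/- siGLO. It was 1542, 1331 and 1513 in *Stag2*-/- siGLO, 2197, 2354 and 2698 in wild-type siStag1, and 1295, 1311 and 1326 in *Stag2*-/- siStag1. The *Stag1*-/- libraries were the 3 highest of all 15, the 6 *Stag2*-/- libraries were the 6 lowest, and wild-type siStag1 overlapped wild-type siGLO. *Rpl22l1* rose by 0.64 in *Stag1*-/- siGLO (SE 0.12, adjusted p = 0.00234), and it fell by 0.70 in *Stag2*-/- siGLO (SE 0.13, adjusted p = 0.00105) and by 0.86 in *Stag2*-/- siStag1 (SE 0.13, adjusted p = 7.01e-05). Compared directly, *Stag1*-/- siGLO stood 1.35 above *Stag2*-/- siGLO in *Rpl22l1* (SE 0.13, adjusted p = 5.72e-06) and 1.05 below it in *Rpl22*, the log2 change being -1.05 (SE 0.12, adjusted p = 2.91e-05). These *Rpl22l1* calls held in all 11 alternatives and with any 1 library left out. In wild-type siStag1 neither gene passed the test (*Rpl22* 0.22, adjusted p = 0.880).

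**Figure D1:**
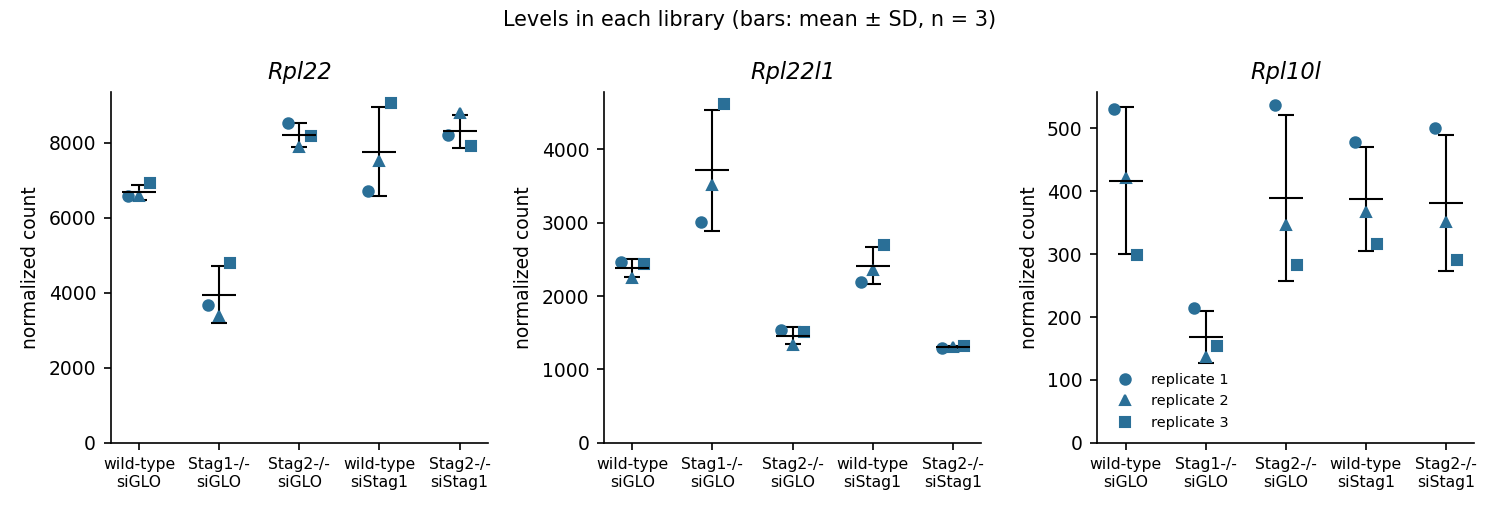
Normalized counts (y axes) of *Rpl22*, *Rpl22l1* and *Rpl10l*, one panel each, in each library of the 5 conditions (x axis), with the mean ± SD of 3 replicates as bars. *Rpl22* is lowest in *Stag1*-/- siGLO (3376 to 4806) where *Rpl22l1* is highest (3015 to 4617), *Rpl22l1* is lowest in both *Stag2*-/- conditions (1295 to 1542), and *Rpl10l* is lowest in *Stag1*-/- siGLO (136 to 215).

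The balance of the pair can be given as the ratio of *Rpl22l1* to *Rpl22* normalized counts within a library, which does not depend on library scaling. It was 0.356 ± 0.017 (SD, n = 3) in wild-type siGLO, 0.940 ± 0.111 in *Stag1*-/- siGLO, 0.178 ± 0.0083 in *Stag2*-/- siGLO, 0.313 ± 0.015 in wild-type siStag1 and 0.158 ± 0.0092 in *Stag2*-/- siStag1. No library of 1 condition overlapped another in any of the 6 pairs of conditions compared. The exact two-sided permutation test gave p = 0.1 for each of the 6, the smallest value that 3 against 3 allows, so it cannot pass a threshold of 0.05. Of the 20 tested genes within 1 Mb of *Rpl22*, 3 rose and 4 fell in *Stag1*-/- siGLO (median log2 change 0.13), and of the 3 near *Rpl22l1* none was called in *Stag1*-/- or *Stag2*-/- siGLO by edgeR.

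Of the other paralogues, *Rpl10l*, an intronless copy known from the testis, fell in *Stag1*-/- cells. Its normalized counts were 531, 422 and 298 in wild-type siGLO, 215, 136 and 154 in *Stag1*-/- siGLO, 538, 347 and 283 in *Stag2*-/- siGLO, 479, 368 and 316 in wild-type siStag1 and 501, 352 and 291 in *Stag2*-/- siStag1. The *Stag1*-/- libraries lay below all others, and replicate 1 was the highest of the 3 in every condition. *Rpl10l* fell by 1.31 against wild-type siGLO (SE 0.28, edgeR adjusted p = 0.00436) and by 1.21 against *Stag2*-/- siGLO (SE 0.28, adjusted p = 0.00649), and both calls held in every alternative. *Rpl3l*, a muscle paralogue, was called lower in *Stag1*-/- siGLO (-1.10, SE 0.40, adjusted p = 0.0801) on 76, 41 and 26 raw counts in wild-type siGLO against 21, 15 and 32. These groups overlap, and 4 of the 6 fits with a library left out did not call it (adjusted p = 0.375 without wild-type siGLO replicate 1, 0.135 without wild-type siGLO replicate 2, 0.191 without *Stag1*-/- siGLO replicate 1 and 0.229 without replicate 2). *Rpl7l1* was at 5333, 4351 and 3612 in wild-type siGLO and 4172, 3472 and 3601 in *Stag1*-/- siGLO. Its change of -0.24 was not called (adjusted p = 0.255), but it was with the replicate number as a block (adjusted p = 0.0323). *Rpl39l* and *Rps27l* passed the test in none of the comparisons with wild-type siGLO, with changes of -0.36 to 0.15 and -0.17 to 0.15.

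In *Stag2*-/- siGLO, 16 ribosomal protein mRNAs were called higher than in wild-type siGLO, with the largest changes in *Rps29*, *Rps28*, *Rpl38* and *Rps21*. The summed neural markers stood higher and the summed mESC, trophoblast and primitive endoderm markers lower in the same libraries, without overlap with wild-type siGLO, with 5 of the 10 mESC markers called lower and 1 higher, and their part in these rises was not tested. Of 49 large subunit genes, 9 were called higher and 2 lower, and 7 small subunit genes higher and 0 lower of 31. Over all genes tested 13.9% were called higher and 14.4% lower, beside shares called higher of 18.4% in the large and 22.6% in the small subunit, and called lower of 4.08% and 0. With the replicate number as a block, 11 large subunit genes were called higher (22.4%) and 3 lower, and 10 small subunit genes higher (32.3%) and 0 lower, where 19.9% of all genes were called higher and 19.6% lower. The share called higher depends on single libraries. It was 6.17% of the members against 8.06% of all genes without wild-type siGLO replicate 2, 4.94% against 9.62% without wild-type siGLO replicate 3, and 6.17% against 13.0% without *Stag2*-/- siGLO replicate 1, and in these 3 fits it lay below that of all genes. The median change was 0.14 for the large and 0.13 for the small subunit genes, against 0.01 over all genes. The libraries of both conditions did not overlap for 19 large subunit genes that stood higher and 4 that stood lower, and for 16 and 1 small subunit genes, where 17.1% and 18.5% of all genes did so.

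*Rps29*, a small zinc-binding protein of the small subunit (chr12:69157722-69159186, - strand), had 3416, 2809 and 2675 normalized counts in wild-type siGLO and 6971, 5141 and 4801 in *Stag2*-/- siGLO. Every knockout library lay above every wild-type library. It rose by 0.93 on the log2 scale (SE 0.24, edgeR adjusted p = 0.0123). *Rps28*, which lies near the messenger RNA exit of the small subunit, had 4114, 3662 and 3614 against 7425, 6164 and 5886 and rose by 0.77 (SE 0.22, adjusted p = 0.0194). *Rpl38*, a large subunit protein known for its role in the translation of Hox mRNAs, had 3286, 2870 and 2525 against 4893, 4540 and 4113 and rose by 0.64 (SE 0.16, adjusted p = 0.0114). *Rps21* had 6424, 4942 and 4623 against 9604, 7248 and 7438 and rose by 0.60 (SE 0.18, adjusted p = 0.0243). In these 3 genes too the groups did not overlap, and within *Stag2*-/- siGLO replicate 1 was the highest in all 4. The calls of *Rps29*, *Rps28* and *Rpl38* held with any 1 library left out and in all 11 alternatives, while that of *Rps21* was lost without wild-type siGLO replicate 3 (0.51, adjusted p = 0.103).

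The other 12 rises were smaller. They were *Rpl39* (0.46), *Rpl37a* (0.39), *Rpl41* (0.39), *Rplp2* (0.39), *Rpl37* (0.36), *Rpl36a* (0.30), *Rpl22* (0.29) and *Rpl35a* (0.27) in the large subunit and *Rps23* (0.38), *Rps12* (0.26), *Rps9* (0.24) and *Rps19* (0.21) in the small. RPL41 is the shortest protein of the ribosome, RPS19 is the protein most often mutated in Diamond-Blackfan anaemia, RPS23 lies in the decoding centre, and RPL39 lines the exit tunnel. None of these groups overlapped, with edgeR adjusted p from 0.0266 (*Rps23*) to 0.0955 (*Rps19*). Of these 12, only *Rps23* was called in as many as 5 of the 6 fits that leave out 1 library, and *Rpl22* in none. Without wild-type siGLO replicate 2, the members called fell to 2 large and 4 small, without wild-type siGLO replicate 3 to 5 and 2, and without *Stag2*-/- siGLO replicate 1 to 4 and 4. The members that fell were *Rpl22l1* and *Rpl13*.

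Up to 2000 nt, the median change of the members was larger where transcripts were shorter. Of the 9 tested members under 500 nt, 5 rose and their median log2 change was 0.30. Of the 17 from 500 to 700 nt, 5 rose and 1 fell, with a median of 0.16, and of the 25 from 700 to 1000 nt, 5 rose and 1 fell, with a median of 0.11. None of the 23 members from 1000 to 2000 nt was called by edgeR, and their median was 0.04. The order ended there: the 5 members from 2000 to 4000 nt, with *Rpl22* (2051 nt) the remaining rise, had a median of 0.19, and the 1 member over 4000 nt was at 0.12. Genes outside the set showed the same order, with medians of 0.25 for the 165 genes under 500 nt (15.8% called higher, 4.85% lower), 0.12 for 198 (13.1% and 8.59%), 0.09 for 560 (13.9% and 6.96%) and 0.02 for 3052 (12.4% and 11.4%). Across the 80 members Spearman's rho of length and log2 change was -0.43 in *Stag2*-/- siGLO, -0.29 in *Stag1*-/- siGLO, -0.32 in wild-type siStag1 and -0.37 in *Stag2*-/- siStag1, a description over genes of the same libraries and the same controls. When each library's trend with length was estimated on genes outside the set and taken out, the median change of the members in *Stag2*-/- siGLO was 0.04 in place of 0.13, and 12 were called higher and 4 lower (15% and 5% of the members, against 15% and 14.5% of all genes with the same offset). The median in *Stag2*-/- siStag1 was 0.08 with and without the offset, and 25 members were called higher in place of 11. Without the offset, it was 0.04 without wild-type siGLO replicate 3, 0.05 without *Stag2*-/- siStag1 replicate 2 and 0.12 without *Stag2*-/- siStag1 replicate 3. In *Stag2*-/- siGLO with the offset, *Rps29* (0.75, adjusted p = 0.0122), *Rps28* (0.60, adjusted p = 0.0177), *Rpl38* (0.49, adjusted p = 0.0157) and *Rps21* (0.43, adjusted p = 0.0114) were still called higher. *Rpl35a*, *Rpl36a*, *Rpl41*, *Rps12* and *Rps19* were not (0.12 to 0.27, adjusted p from 0.156 to 0.244). This alternative was chosen after the data were seen, and what in the cells or in the library preparation the length trend reflects was not tested.

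**Figure D2:**
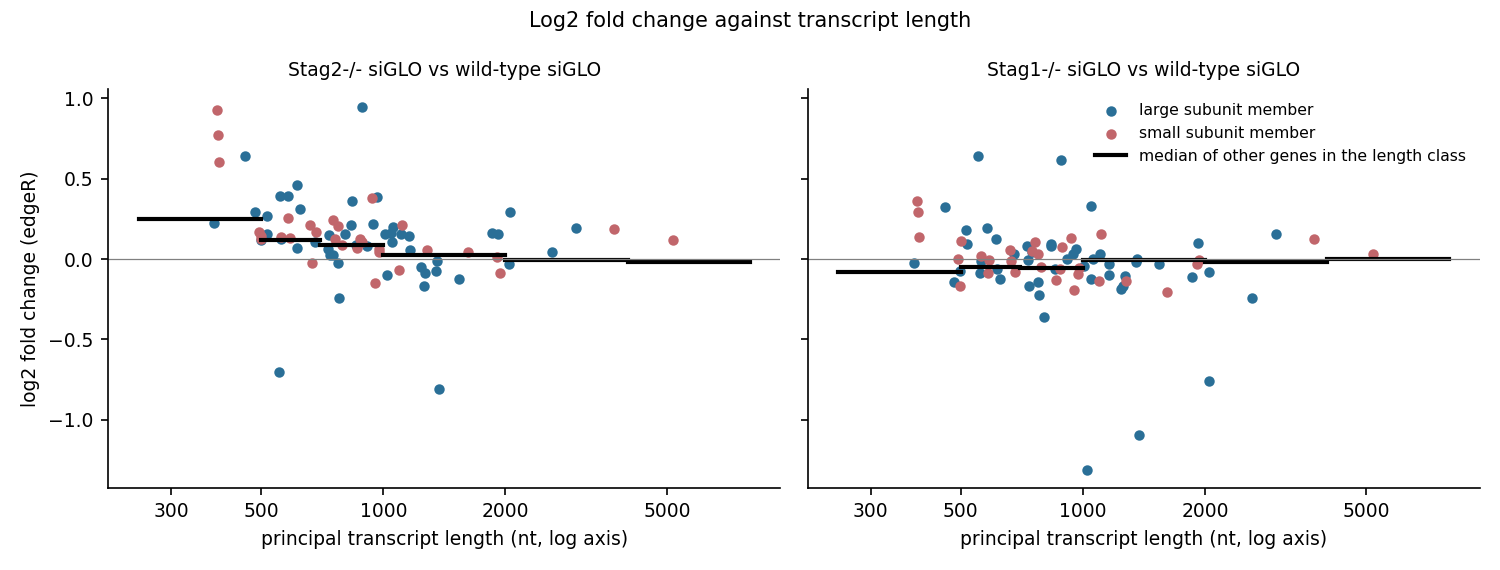
Log2 fold change in edgeR (y axis) against the length of the principal transcript in nt (x axis, log axis), for the members of both subunits (points) in *Stag2*-/- siGLO (left) and *Stag1*-/- siGLO (right) against wild-type siGLO. Black lines are the medians of other genes in each length class, and under 500 nt in *Stag2*-/- siGLO this line is at 0.25 and the members' median at 0.30.

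In *Stag1*-/- siGLO, 5 members passed the test, and the count called lower depends on 1 library. One large subunit gene was called higher (*Rpl22l1*) and 4 lower (*Rpl22*, *Rpl10l*, *Rpl3l* and *Rpl13*) of 49. Of 31 small subunit genes, edgeR called 0, with 1 under an unadjusted p of 0.05, and DESeq2 called 0. Over all genes 10.1% were called higher and 9.93% lower, against 1.25% and 5.00% of the 80 members. The median change was -0.03 for the large and -0.00 for the small subunit genes, against -0.01 over all genes. The 3 *Stag1*-/- libraries differed among themselves, and *Rps29*, for example, had 4861, 2643 and 3917 normalized counts. Without *Stag1*-/- siGLO replicate 3, edgeR called 10 large and 5 small subunit genes, 9 and 5 of them lower. These 14 are 17.5% of the members, against 9.09% of all genes in that fit, so the members' share called lower went from below to above that of all genes. Without *Stag1*-/- siGLO replicate 2 it called 2 small subunit genes higher, and without wild-type siGLO replicate 1 or 2 it called 3 large subunit genes. With the replicate block, the calls added included *Rpl7l1* and *Rps7* (adjusted p = 0.0885), both lower, making 1 higher and 7 lower of 80 (15.3% of all genes were called in each direction with the block).

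In wild-type siStag1, the acute loss of STAG1 for 48 h changed no member past the threshold. EdgeR called 0 large and 0 small subunit genes, and so did DESeq2 and every alternative, with 6 members under an unadjusted p of 0.05. Over all genes only 0.103% were called higher and 0.145% lower. The 6 were *Rpl38*, *Rps29*, *Rps28*, *Rps23*, *Rpl32* and *Rpl39*, all higher. The share of all genes under an unadjusted p of 0.05 is not given here, so the 6 are named as a description. *Rps29* stood at 3264, 4330 and 6683 normalized counts and *Rps28* at 3778, 5232 and 7877, with replicate 1 inside the range of wild-type siGLO and replicate 3 above it in each. Their changes were 0.68 (SE 0.24, adjusted p = 0.510) and 0.57 (SE 0.22, adjusted p = 0.601), and that of *Rpl38* was 0.51 (SE 0.16, adjusted p = 0.436). The log2 change was above 0 in 44 of 49 large and 28 of 31 small subunit genes, with medians of 0.08 and 0.07, and in 7196 of all 14508 genes, with a median of -0.00. Over all members the median of 0.08 was 0.04 with the length trend taken out. It was 0.04 without wild-type siStag1 replicate 3 and 0.12 without wild-type siStag1 replicate 1. Among transcripts under 500 nt the median was 0.16 for the 9 members and 0.12 for the 165 other genes. In 6 members (4 large, 2 small) the libraries did not overlap with wild-type siGLO, all higher, where 7.45% of all genes stood higher and 8% lower without overlap.

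When both STAG proteins were depleted (*Stag2*-/- siStag1 against wild-type siGLO), 4 large subunit genes were called higher and 3 lower, and 7 small subunit genes higher and 1 lower. Over all genes 22.6% were called higher and 21.3% lower, so the share of large subunit genes called higher (8.16%) was below that of all genes and the share of small subunit genes was the same (22.6%). This depends on the length trend: with it taken out, 25 of the 80 members were called higher (31.2%) and 4 lower, 17 of the 29 in the large subunit, where 23.1% of all genes were called higher and 22.2% lower. *Rps29* stood at 4201, 5429 and 4154 normalized counts, above all wild-type siGLO libraries, and rose by 0.63 (SE 0.24, edgeR adjusted p = 0.0483). *Rps28* rose by 0.59, *Rps21* by 0.54, *Rpl38* by 0.40 and *Rplp2* by 0.40. *Rps19*, *Rps23*, *Rps12*, *Rps9*, *Rpl37a* and *Rpl22* rose by 0.25 to 0.31. *Rpl22l1*, *Rpl13*, *Rpl4*, which lies at the exit tunnel, and *Rps7* fell, by 0.86, 0.23, 0.21 and 0.20. Several of these calls rest on single libraries: *Rps29* was not called without wild-type siGLO replicate 2 (adjusted p = 0.131) or 3 (0.14) or without *Stag2*-/- siStag1 replicate 2 (0.172), and without wild-type siGLO replicate 2 the set fell to 3 large and 3 small subunit genes called (3.70% of the members in each direction, against 17.7% of all genes higher and 17.3% lower). Of the 15 called, *Rpl22l1*, *Rpl13*, *Rpl4* and *Rps19* were called in all 6 such fits, *Rps21* and *Rps9* in 5, and *Rpl37a* in 1.

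Adding siStag1 to *Stag2*-/- cells changed no member past the threshold. Between *Stag2*-/- siStag1 and *Stag2*-/- siGLO, edgeR called 0 members, with 0 under an unadjusted p of 0.05, and DESeq2 called 0, while 2.98% of all genes were called higher and 3.39% lower. The log2 change was above 0 in 8 of 49 large and 6 of 31 small subunit genes, and the medians were -0.06 and -0.04, whereas it was above 0 in 7412 of all 14508 genes, with a median of 0.01. Over all members the median of -0.04 turned to 0.04 with the length trend taken out. It also depends on single libraries, being 0.0020 without *Stag2*-/- siGLO replicate 1 and -0.0006 without *Stag2*-/- siStag1 replicate 3. The effect of siStag1 in *Stag2*-/- cells minus that in wild-type cells was also tested directly, and edgeR and DESeq2 called 0 members, with 6 under an unadjusted p of 0.05 (0.0207% of all genes were called higher and 0.138% lower). Named by their differences, these were *Rpl38* with a difference of -0.75 (SE 0.23, adjusted p = 0.459), *Rps29* with -0.98 (SE 0.33, adjusted p = 0.580), *Rps28* with -0.75, *Rpl39* with -0.51, *Rps23* with -0.39 and *Rpl32* with -0.32. The share of all genes under that unadjusted p is not given here, so these 6 are a description. Over all members the median difference of -0.12 was -0.01 with the length trend taken out. Among transcripts under 500 nt the median difference was -0.21 for the 9 members and -0.29 for the 165 other genes.

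**Figure D3:**
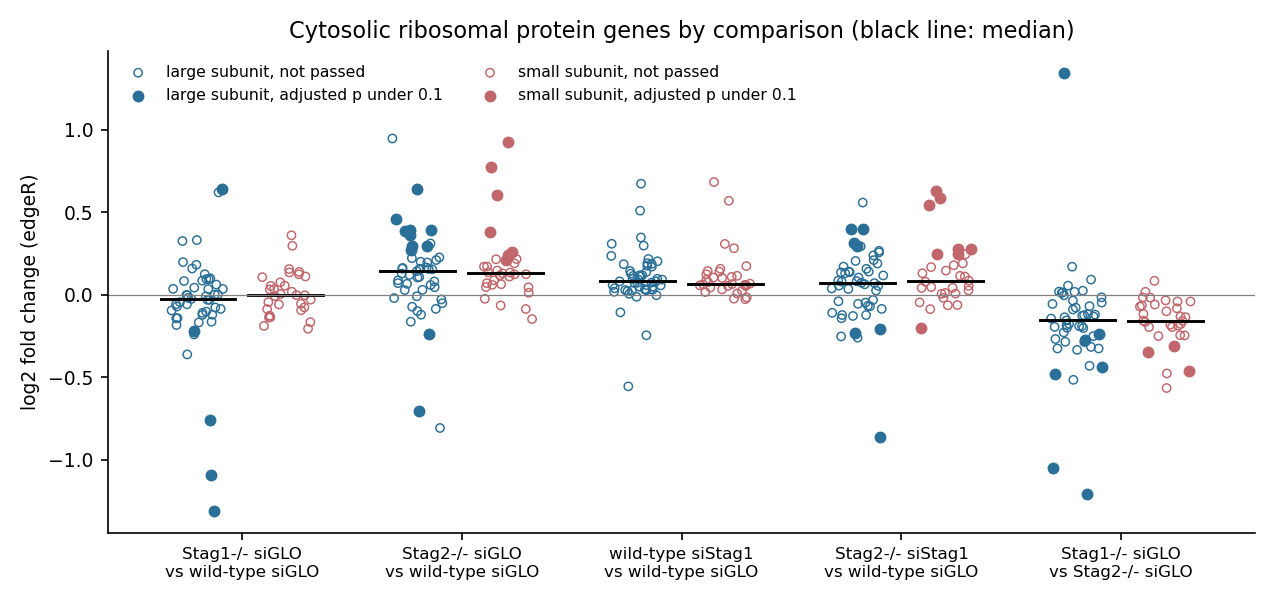
Log2 fold changes in edgeR (y axis) of the 80 tested members in 5 comparisons (x axis), large and small subunit apart, with called members filled and the median as a black line. The medians in *Stag2*-/- siGLO are 0.14 and 0.13, and *Rpl22l1* is the lowest called member there and the highest between the knockouts (1.35). The open points at 0.95 and -0.81 in *Stag2*-/- siGLO are the low-count genes *Rpl30* and *Rpl3l*, which did not pass the test.

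Compared directly, the members had a lower median in *Stag1*-/- siGLO than in *Stag2*-/- siGLO, and how many passed the test depended on pairing by replicate number. The median difference was -0.16 in both subunits, against -0.03 over all genes, and the log2 difference was above 0 in 9 of 49 large and 2 of 31 small subunit genes, and in 6808 of all 14508 genes. Over all members the median of -0.16 was -0.08 without *Stag1*-/- siGLO replicate 2 and -0.10 without *Stag2*-/- siGLO replicate 1. It was -0.22 without *Stag1*-/- siGLO replicate 3. EdgeR called 1 large subunit gene higher (*Rpl22l1*) and 6 lower, and 3 small subunit genes lower, where 12.7% of all genes were called higher and 12.9% lower (1.25% and 11.2% of the members). The libraries did not overlap for 3 members that stood higher and 9 that stood lower, where 15.7% and 15.3% of all genes did so. Besides *Rpl22* and *Rpl10l*, the lower genes were *Rpl37a* (-0.48), *Rpl36a* (-0.44), *Rpl21* (-0.28) and *Rpl27a* (-0.24) in the large subunit and *Rps21* (-0.47), *Rps12* (-0.35) and *Rps27l* (-0.31) in the small. *Rpl36a* had 4318, 4098 and 5527 normalized counts in *Stag1*-/- siGLO and 7072, 5749 and 6096 in *Stag2*-/- siGLO, without overlap. With the replicate number as a block, which pairs the libraries here, 1 large subunit gene was called higher and 16 lower, and 12 small subunit genes lower (18.1% and 19.2% of all genes). The 19 added are led by *Rps29* (-0.58, adjusted p = 0.0640), *Rpl39l* (-0.55, adjusted p = 0.0495) and *Rps28* (-0.49, adjusted p = 0.0816). Without *Stag1*-/- siGLO replicate 3 the unblocked test called 20 large and 12 small subunit genes. Of the members, 38.8% were then called lower against 11.9% of all genes, where the fit on all libraries has 11.2% against 12.9%. Without *Stag1*-/- siGLO replicate 2 it called 4 and 1, with 4.94% lower against 8.14%. With the length trend taken out it called 3 members higher and 7 lower, with a median of -0.05. Among the calls, *Rpl27a* was made in 1 of the 6 fits with a library left out, *Rpl21* and *Rps27l* in 2 and *Rps21* in 3.

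Values by chromosome are given beside *Rpl13*. It lies on chromosome 8, where the 758 tested genes outside the set stood lower in both knockout clones, with median log2 changes of -0.19 in *Stag1*-/- siGLO, -0.21 in *Stag2*-/- siGLO and -0.23 in *Stag2*-/- siStag1 and 0.00 in wild-type siStag1. The medians of the other autosomes lay between -0.05 and 0.09 in these 4 comparisons. *Rpl13* had 28408, 27898 and 25457 normalized counts in wild-type siGLO, 24882, 21241 and 23941 in *Stag1*-/- siGLO, 23705, 23588 and 21900 in *Stag2*-/- siGLO, 28463, 29615 and 30580 in wild-type siStag1 and 23847, 23590 and 22218 in *Stag2*-/- siStag1. All knockout libraries lay below all wild-type libraries of both treatments. *Rpl13* fell by 0.22 (SE 0.08, edgeR adjusted p = 0.0623), 0.24 (SE 0.08, adjusted p = 0.0351) and 0.23 (SE 0.08, adjusted p = 0.0262) in the same order, changes close to the chromosome's medians. In *Stag1*-/- siGLO it was not called without wild-type siGLO replicate 1 (adjusted p = 0.183), wild-type siGLO replicate 2 (0.185) or *Stag1*-/- siGLO replicate 2 (0.213), nor in *Stag2*-/- siGLO without wild-type siGLO replicate 2 (0.122) or *Stag2*-/- siGLO replicate 3 (0.123).

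The part of chromosome 8 in the change of *Rpl13* was not tested. On the X chromosome, the other 515 genes had a median of 0.12 in *Stag2*-/- siGLO (26.2% called higher), and of its 4 members *Rpl39* and *Rpl36a* rose whereas *Rpl10* (0.09) and *Rps4x* (0.06) did not pass the test.

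**Figure D4:**
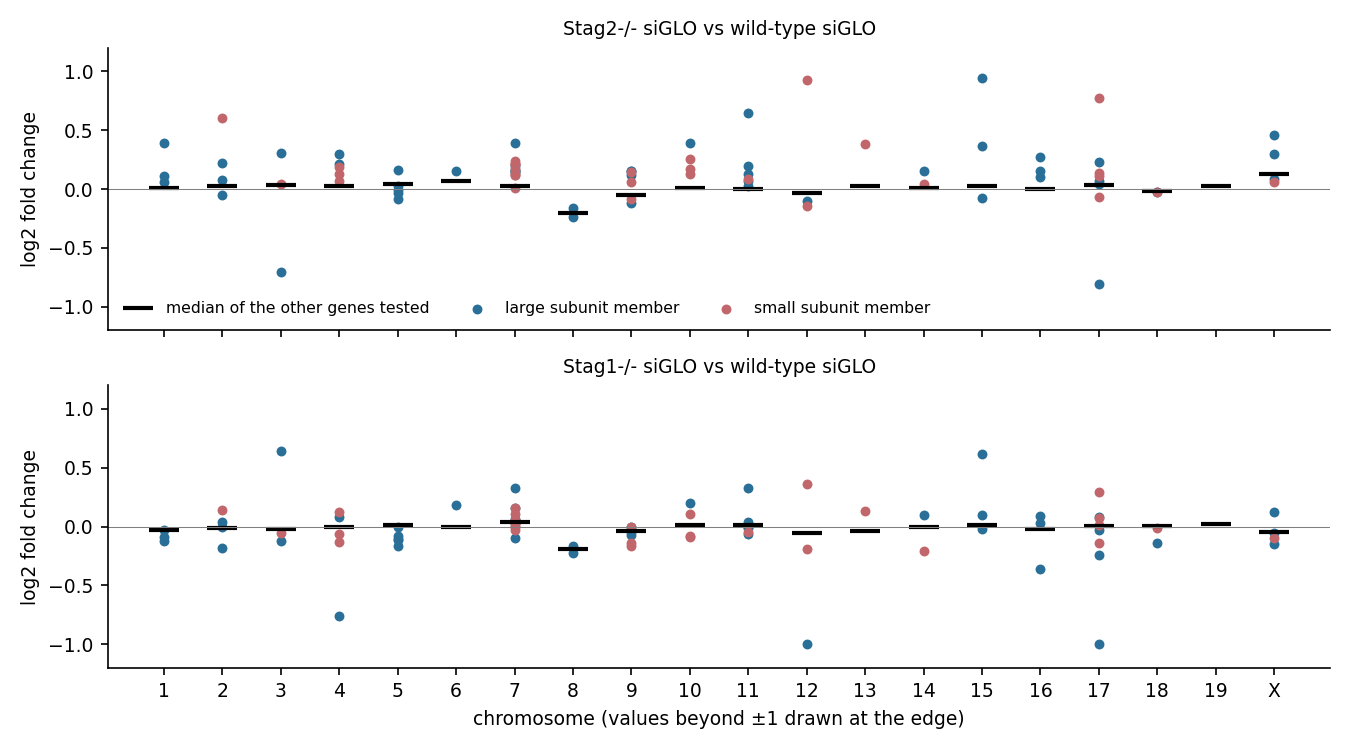
Log2 fold changes (y axis) of the members by chromosome (x axis) in *Stag1*-/- siGLO and *Stag2*-/- siGLO against wild-type siGLO, beside the median of the other tested genes of that chromosome (black lines). Points beyond 1 or -1 are drawn at the edge. Chromosome 8 stands below the other autosomes in both, at -0.19 and -0.21.

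*Rplp2* passed the test in *Stag2*-/- cells, and 4 other members followed for their roles did not. *Rplp0*, *Rplp1*, *Rpsa* (the laminin receptor precursor of the small subunit) and *Rps6*, the target of the S6 kinases, were called in none of the 4 comparisons with wild-type siGLO, with log2 changes between -0.09 and 0.12. *Rplp0* had 40612, 39429 and 35374 normalized counts in wild-type siGLO and 40530, 38943 and 35137 in *Stag2*-/- siGLO, and the groups overlapped. *Rplp2* had 8014, 8164 and 9055 in wild-type siGLO against 12204, 10174 and 10624 in *Stag2*-/- siGLO and 12233, 10964 and 10101 in *Stag2*-/- siStag1, and rose by 0.39 (SE 0.14, edgeR adjusted p = 0.0691) and 0.40 (SE 0.14, adjusted p = 0.0402). In *Stag2*-/- siGLO 4 of the 6 fits with a library left out did not call it (adjusted p = 0.151 without wild-type siGLO replicate 1, 0.18 without replicate 2, 0.191 without *Stag2*-/- siGLO replicate 1 and 0.1004 without replicate 3). In *Stag2*-/- siStag1 3 of 6 did not (0.107 without wild-type siGLO replicate 1, 0.112 without replicate 2 and 0.12 without *Stag2*-/- siStag1 replicate 1).

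Other genes of the same pathways were read from lists. Of 76 mitochondrial ribosomal proteins, which build the separate ribosome of mitochondria, 2 rose and 3 fell in *Stag1*-/- siGLO (*Mrpl38* 0.56, *Mrps31* -0.50), 12 rose and 1 fell in *Stag2*-/- siGLO (*Mrps18c* 0.51, *Mrps21* 0.48), and 4 rose and 8 fell in *Stag2*-/- siStag1 (*Mrps31* -0.57). In the same order these are 2.63% and 3.95% of the list against 10.1% and 9.93% of all genes, 15.8% and 1.32% against 13.9% and 14.4%, and 5.26% and 10.5% against 22.6% and 21.3%. None was called in wild-type siStag1 by edgeR, with 0 under an unadjusted p of 0.05. Between *Stag1*-/- and *Stag2*-/- siGLO 1 was higher and 19 lower (1.32% and 25.0%, against 12.7% and 12.9% of all genes), with a median of -0.16, the same as in the cytosolic set (*Mrpl17* -0.62, *Mrpl52* -0.52). Their medians against wild-type siGLO were 0.12 in *Stag2*-/- siGLO, -0.05 in *Stag1*-/- siGLO, 0.03 in wild-type siStag1 and 0.01 in *Stag2*-/- siStag1.

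Of 22 translation factors and other genes with TOP messengers, 1 rose and 2 fell in *Stag1*-/- siGLO (*Eif3l* -0.81, *Vim* -1.04), 4 rose and 1 fell in *Stag2*-/- siGLO (*Vim* 0.71, *Nap1l1* 0.38, *Eif3f* 0.29) and 4 rose and 3 fell in *Stag2*-/- siStag1. The shares were 4.55% and 9.09% in *Stag1*-/- siGLO, 18.2% and 4.55% in *Stag2*-/- siGLO, and 18.2% and 13.6% in *Stag2*-/- siStag1, the last both below those of all genes (22.6% and 21.3%). *Eef1a1*, the elongation factor that brings aminoacyl-tRNA, fell by 0.15 in *Stag2*-/- siGLO (edgeR adjusted p = 0.0896). Of 22 regulators of TOP translation, 2 rose in *Stag1*-/- siGLO (*Larp1* 0.54 and the mTORC1 inhibitor *Akt1s1* 0.30), 3 rose and 1 fell in *Stag2*-/- siGLO (*Akt1s1* 0.35, *Larp1* 0.32 and *Tial1* 0.27, with *Sesn1* -0.47), and 4 rose and 2 fell in *Stag2*-/- siStag1 (*Akt1s1* 0.49, *Tial1* 0.31, *Rptor* 0.24 and *Mtor* 0.22, with *Eif4ebp1* -0.54 and *Sesn1* -0.50). The shares of these regulators called higher and lower were 9.09% and 0 in *Stag1*-/- siGLO, 13.6% and 4.55% in *Stag2*-/- siGLO, and 18.2% and 9.09% in *Stag2*-/- siStag1, each below the share of all genes. Of 9 MYC network genes, *Mycn* and *Mnt* rose in *Stag1*-/- siGLO (0.53 and 0.31) and in *Stag2*-/- siGLO (0.57 and 0.42), where *Mga* fell by 0.31. In *Stag2*-/- siStag1, *Mxd4* (0.92) and *Mnt* (0.52) rose and *Mga* (-0.43) and *Mlx* (-0.28) fell. With 9 genes, the shares called higher and lower were 22.2% and 0, 22.2% and 11.1%, and 22.2% and 22.2% in these 3 comparisons, against 10.1% and 9.93%, 13.9% and 14.4%, and 22.6% and 21.3% of all genes. In the added depletion, *Stag2*-/- siStag1 against *Stag2*-/- siGLO, *Mycn* (-0.49) and *Max* (-0.37) were the only members of these lists that were called by edgeR.

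Of 11 chaperones and importers of ribosomal proteins, 1 rose in *Stag1*-/- siGLO (*Pdcd2* 0.44), 2 rose in *Stag2*-/- siGLO (*Nap1l1* and *Tsr2*, the RPS26 chaperone, 0.49) and 4 rose and 1 fell in *Stag2*-/- siStag1 (*Tsr2* 0.44, *Aamp* -0.20). The shares called higher were 9.09%, 18.2% and 36.4% of the 11, against 10.1%, 13.9% and 22.6% of all genes, and those called lower were 0, 0 and 9.09%, against 9.93%, 14.4% and 21.3%. Of 3 ribosomal protein genes whose symbols lie outside the naming rule, *Rpl36al* rose in *Stag2*-/- siGLO (0.39, SE 0.12, edgeR adjusted p = 0.0263). In wild-type siStag1 edgeR called 0 genes of all these lists, with 1 under an unadjusted p of 0.05.

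The set took 6.38%, 6.22% and 6.09% of all gene counts in wild-type siGLO and 6.75%, 6.53% and 6.50% in *Stag2*-/- siGLO, so the 3 knockout libraries lay above the 3 wild-type libraries. It took 6.14%, 5.50% and 6.63% in *Stag1*-/- siGLO, 6.22%, 6.62% and 7.09% in wild-type siStag1 and 6.46%, 6.80% and 6.25% in *Stag2*-/- siStag1, each overlapping wild-type siGLO. The 95% Wilson intervals are within 0.0122 percentage points of each share and cover counting error only, so the spread between libraries is far wider. The large to small subunit ratio of counts was 1.38 ± 0.015 (SD, n = 3) in wild-type siGLO, 1.38 ± 0.026 in *Stag1*-/- siGLO, 1.35 ± 0.020 in *Stag2*-/- siGLO, 1.39 ± 0.001 in wild-type siStag1 and 1.33 ± 0.004 in *Stag2*-/- siStag1. The *Stag2*-/- siStag1 libraries lay below all wild-type siGLO libraries in this ratio (1.33 to 1.34 against 1.36 to 1.39).

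Within a condition, many members were highest in the same library. Of the 80 tested, 69 were highest in replicate 1 of wild-type siGLO and 64 in replicate 1 of *Stag2*-/- siGLO, 67 in replicate 3 of wild-type siStag1, and 49 in replicate 3, 31 in replicate 1 and 0 in replicate 2 of *Stag1*-/- siGLO. They were divided in *Stag2*-/- siStag1, with 35, 41 and 4 highest in replicates 1, 2 and 3. Of all genes tested, 38.4% were highest in replicate 1 of wild-type siGLO, 39.6% in replicate 1 of *Stag2*-/- siGLO, 38.3% in replicate 3 of wild-type siStag1 and 32.5% in replicate 3 of *Stag1*-/- siGLO, against 86.2%, 80.0%, 83.8% and 61.2% of the members. The median member stood -0.17 on the log2 scale from the wild-type siGLO mean in *Stag1*-/- siGLO replicate 2, 0.11 in its replicate 3, 0.18 in wild-type siStag1 replicate 3 and 0.21 in *Stag2*-/- siGLO replicate 1. The median of the 363 other genes with transcripts under 700 nt was -0.29, 0.17, 0.19 and 0.29 in the same 4 libraries. Both medians lay on the same side of 0 in every library except *Stag2*-/- siStag1 replicate 3 (0.01 and -0.05). Their order among replicates was not always the same, as in replicates 2 and 3 of *Stag2*-/- siGLO, where the members stood at 0.11 and 0.07 and the short genes at 0.05 and 0.15.

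**Figure D5:**
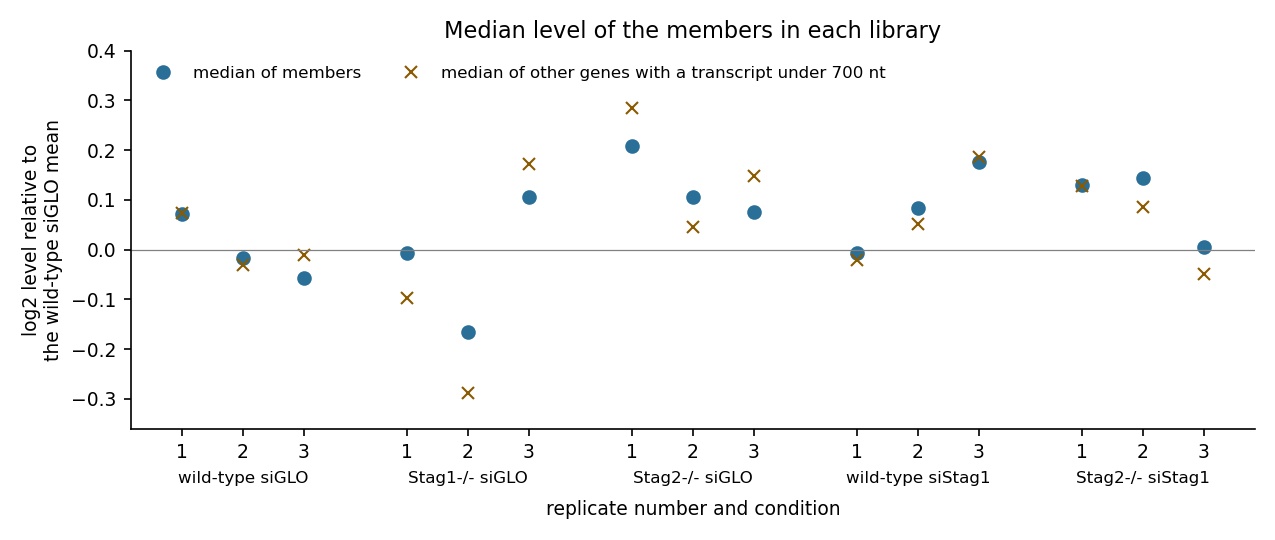
Median log2 level of the members and of other genes with short transcripts (y axis, relative to the wild-type siGLO mean) in each of the 15 libraries (x axis, replicate number and condition). Both are lowest in *Stag1*-/- siGLO replicate 2 (-0.17 and -0.29) and highest in *Stag2*-/- siGLO replicate 1 (0.21 and 0.29).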

How the data were processed

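PolyA RNA of 15 libraries in 5 conditions, 3 replicates each, was analysed. Per the labels and methods, the authors aligned 150 bp paired-end reads with STAR to mm10 and deposited raw counts per gene without normalization. The counting tool, annotation and strand setting are not given in the sources used here, so reads of a member and an overlapping gene may not be told apart. Summary rows that name no gene were left out, among them multimapping reads (3.8% to 4.5% of all reads listed), as were all other assays of the study. Genes were placed with GENCODE M21 (93.0% of symbols matched directly, 5.5% by an older symbol, 1.5% not found), and length is that of the principal transcript.

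Tests on the counts used edgeR 4.0.16 under R 4.3.3 (filterByExpr by condition with minimum count 10 and minimum total 15, TMM, glmQLFit over all 15 libraries, two-sided glmQLFTest). The Benjamini-Hochberg adjustment ran over 14508 genes with a threshold of 0.1, and the SE is the log2 fold change divided by the square root of F. The 7 comparisons were the 4 conditions against wild-type siGLO, *Stag1*-/- siGLO and *Stag2*-/- siStag1 each against *Stag2*-/- siGLO, and the difference of the siStag1 effects. The study calls the wild-type, *Stag1*-/- and *Stag2*-/- libraries biological replicates, without saying in the sources used here how they were separated, and each knockout is 1 clone, so p-values measure the spread between these libraries. Libraries of a condition were not copies of each other (chi-square over degrees of freedom 4.7 to 26.8). Depth was 14982560 to 19070126 gene counts per library.

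Replicate numbers come from the titles. Same-numbered libraries deviated together in 27 of 30 pairs (r over 0.1 across 11529 genes, mean 0.311, with -0.152 for different numbers). Deviations of the 3 replicates from their mean sum to 0, so the value for different numbers follows largely from that for same numbers. The numbers were taken to pair the libraries except where *Stag2*-/- siStag1 was set against wild-type siGLO (lowest r 0.0466) and for the difference of effects. Named members are those called, the paralogues, *Rplp0*, *Rplp1*, *Rplp2*, *Rpsa* and *Rps6*. The members, lists and tests were chosen with earlier results of these data known. Alternatives were DESeq2 1.42.0, a stricter threshold of 0.05, a replicate block, leaving out each library in turn, a fit on the compared libraries only, no filter or a minimum of 10 counts throughout, and other scalings (DESeq2 size factors, library size alone, TMM without the members). A length offset (lowess, span 0.3, per library, on genes that are no members), with and without the block, and the block with TMM without the members were added after seeing the data. The edgeR fit was also run on simulated counts with known changes, and as its outcome is not reported here, no result rests on it. Promoters are RefSeq sequences on GRCm38.p6, and figures were drawn with matplotlib 3.10.9. Some single-gene results are not reported here.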

Additional observations from a re-analysis of the deposited data

How the results depend on the processing

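Of the single-gene calls, those of *Rpl22l1*, *Rpl10l* and, in *Stag1*-/- siGLO and between the knockouts, *Rpl22* held in all 11 alternatives and with any 1 library left out. So did those of *Rps29*, *Rps28* and *Rpl38* in *Stag2*-/- siGLO and of *Rpl13*, *Rpl4* and *Rps19* in *Stag2*-/- siStag1. Between the knockouts, those of *Rpl36a* and *Rps12* did so too. The counts of members called (large; small subunit) moved by more than 1.5 times as follows. In *Stag1*-/- siGLO (5; 0) they were 3 large at an adjusted p under 0.05, 1 small with the replicate block, with or without the members in TMM, and 13; 4 with the block and the length offset. In *Stag2*-/- siGLO (11; 7) they were 4; 4 at 0.05 and 18; 12 with the block and the length offset. In *Stag2*-/- siStag1 (7; 8) they were 4 large at 0.05, 12 large with the block, with the block and TMM without the members, and with only the libraries compared, 17 large with the length offset and 23; 13 with that and the block. Against *Stag2*-/- siGLO, *Stag2*-/- siStag1 had 1; 1 with the block and the length offset, and *Stag1*-/- siGLO (7; 3) had 1 small at 0.05, 17; 12 with the block, 16; 12 with the block and TMM without the members, and 15; 5 with the block and the length offset. By direction, the block with the length offset called 7 members higher and 10 lower in *Stag1*-/- siGLO (16.6% and 16% of all genes), 20 and 10 in *Stag2*-/- siGLO (21.4% and 19.8%), 31 and 5 in *Stag2*-/- siStag1 (27.9% and 27.3%), 2 and 0 in *Stag2*-/- siStag1 against *Stag2*-/- siGLO (6.75% and 7.95%), and 8 and 12 between the knockouts (18.6% and 20.2%), where the block alone called 1 and 28. The block changed no count of members called in wild-type siStag1, in *Stag2*-/- siStag1 against *Stag2*-/- siGLO or in the difference of the siStag1 effects. A stricter threshold calls fewer genes by construction, and the cause of the other moves was not tested. With 1 library left out, the counts ranged from 3 to 10 large and 0 to 5 small in *Stag1*-/- siGLO, 2 to 10 and 2 to 7 in *Stag2*-/- siGLO, 3 to 9 and 3 to 7 in *Stag2*-/- siStag1, 4 to 20 and 1 to 12 between the knockouts, and 0 to 0 in the other 3 comparisons.

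Members near 0 changed sign without a call. *Rplp0* in *Stag1*-/- siGLO was -0.0129 with library size alone and -0.0013 with only the libraries compared, and *Rpsa* was 0.0033 with DESeq2, 0.0021 with its size factors, 0.0132 without a filter, 0.0074 with the length offset and 0.0077 with that and the block. *Rplp1* with the length offset was -0.0281 in *Stag2*-/- siGLO (-0.0283 with the block) and -0.0493 in wild-type siStag1 (-0.0493 with the block). With 1 library left out in *Stag1*-/- siGLO, *Rplp0* ranged from -0.0569 to 0.0405, *Rplp1* from -0.1664 to 0.0273, *Rplp2* from -0.1379 to 0.2051, *Rps6* from -0.1103 to 0.0014 and *Rpsa* from -0.0459 to 0.0207. *Rplp0* ranged from -0.0679 to 0.0470 in *Stag2*-/- siGLO and from -0.0247 to 0.0730 in wild-type siStag1, where *Rplp1* ranged from -0.0231 to 0.0674. Over single genes, leaving out 1 library kept direction and side of the threshold in 277 cases, lost the call in 105 and turned the direction in 14. No listed symbol starts with mt-, the prefix searched for mitochondrially encoded genes, so leaving such symbols out changed no share. At this depth the low counts of *Rpl26*, *Rps27*, *Rpl30*, *Rpl34* and *Rpl3l* allow no small change to be seen.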
